A study of Mus musculus with 12 samples.

Results

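Transcripts of 10 BCL2 family genes were measured in CD4+ T cells that had answered antigen in the spleen, in 12 mice of 4 treatment groups with 3 mice each. The genes were a fixed list of pro-survival members (Bcl2, Bcl2l1, Mcl1 and Bcl2a1b), BH3-only members (Bcl2l11, Bbc3, Pmaip1 and Bid) and pore-forming effectors (Bax and Bak1), out of 56691 genes in the count table. All 10 passed the filter of at least 30 reads summed over the samples, as did 15138 genes in all. None of the 10 passed the test in CB against isotype, where 4.29% of all genes tested did, or in any other comparison. In CB against isotype, the member estimate furthest from 0 in its own error was that of Bid. Its fitted level in CB was 1.61 times that in isotype (95% interval 1.07 to 2.42, 3 mice per group, edgeR adjusted p = 0.227). The interval is not adjusted for the number of genes. Bid was the 1 of 10 members with an unadjusted edgeR p under 0.05, against 14.9% of all genes. In a list of 21 regulators of BCL2 family genes and proteins, chosen with earlier results of these data known, 5 were called between CB and isotype, namely Pim2, Il2ra and Atf4 higher in CB and Foxo1 and Nfkb1 lower.

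All mice were Tg4 Nr4a3-Tocky Il10-GFP animals. Their CD4+ T cells carry a transgenic receptor for a myelin basic protein peptide, a Timer protein driven by Nr4a3 that is first Blue and matures to Red, and a GFP reporter of Il10. Every mouse received 4 mg/kg of [4Y]-MBP peptide under the skin, antibody into the peritoneum 24 h later, and a second peptide dose of 0.4 mg/kg 30 min after the antibody. Spleens were taken 12 h after the second dose. The isotype group had a pool of rat IgG1 and rat IgG2a, the anti-PD-L1 group had clone MIH5, the anti-Lag3 group had clone C9B7W, and the CB group had both blocking antibodies in equal parts, each mouse receiving 0.5 mg. Only cells positive for both Timer forms were sorted, so the values describe responders and not the cells that failed to signal or that had died by then.

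Each library held between 16449370 and 22151025 reads on genes (median 19176439). Levels are given as CPM, which are reads of a gene at a common depth of reads on genes after TMM scaling. Reads start near the 3' ends of transcripts, and levels are compared between samples and not between genes. Summed CPM of 7 CD4 T cell markers was 2350 to 2490 in isotype and 2030 to 2180 in CB, with no marker at 0 in all samples. Summed CPM of 5 erythroid markers was 241 to 449 in isotype, 170 to 217 in anti-PD-L1, 213 to 287 in anti-Lag3 and 150 to 198 in CB. Sums of 2 CD8 T cell markers were 40.9 to 45.3 in isotype and 24.6 to 30.5 in anti-PD-L1. They were 29.2 to 46.4 in anti-Lag3 and 25 to 33.2 in CB. Over all groups, sums were 6.02 to 29.1 for 7 B cell markers, 55.3 to 99.9 for 10 myeloid markers and 0 to 4.7 for 4 NK cell markers. Most of the CD8 sums came from Cd8b1 and most of the myeloid sums from Cst3. In such bulk samples, fewer cells with a transcript and less of it per cell cannot be told apart.

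The BCL2 family sets the threshold for the mitochondrial route to apoptosis. BAX and BAK form pores in the outer mitochondrial membrane, pro-survival proteins hold them in check, and BH3-only proteins relieve that restraint or activate the effectors directly. In T cells, BIM (from Bcl2l11) is known for removing responding cells as an immune response ends, BCL2 and MCL1 for keeping T cells alive, and BCL-XL and A1 for being induced by activation. Much of the control of this family lies in protein stability and binding, which transcript counts do not read.

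The feature that gives the BH3-only proteins their name is a short helix that docks into a groove of the pro-survival proteins. The stretches below, from GENCODE M21 on GRCm38, show the coding strand of that helix in the 8 members where exactly 1 such match was found and a sequence can be shown. Capitals mark the codon of its conserved leucine and the codons of the small residue and aspartate that follow after 3 further codons.
Bcl2, chr1:106712578-106712607, minus strand: ctgaccCTCcgccgggctGGGGATgacttc
Bcl2l1, chr2:152829700-152829729, minus strand: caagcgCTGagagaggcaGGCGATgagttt
Mcl1, chr3:95659430-95659459, plus strand: gagaccCTGcggcgcgtgGGCGACggcgtg
Bcl2l11, chr2:128147144-128147173, plus strand: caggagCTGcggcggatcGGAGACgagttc
Bbc3, chr7:16313767-16313796, plus strand: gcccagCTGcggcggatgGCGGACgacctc
Bid, chr6:120897292-120897321, minus strand: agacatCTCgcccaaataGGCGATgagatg
Bax, chr7:45466000-45466029, minus strand: gagtgtCTCcggcgaattGGAGATgaactg
Bak1, chr17:27022534-27022563, minus strand: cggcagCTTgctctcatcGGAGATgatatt
All 8 stretches lie in a single coding exon. The codon before that of the aspartate begins with GG in 7 of them and is GCG in Bbc3. The same pattern had 0 matches in the coding sequence of Bcl2a1b.

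Whether checkpoint blockade moved the survival side of the family was asked first with the pro-survival genes. Mcl1, which encodes a short-lived protein that T cells need to survive, was at 214, 206 and 241 CPM in the isotype mice and at 223, 273 and 267 CPM in the CB mice. The lowest CB mouse lay within the isotype range and the other 2 lay above it. The means were 221 ± 18 CPM in isotype, 227 ± 31.3 in anti-PD-L1, 224 ± 28.4 in anti-Lag3 and 254 ± 27.6 in CB (SD, n = 3). The log2 fold change of CB against isotype was 0.21 (SE 0.12, 95% interval -0.04 to 0.45, edgeR adjusted p = 0.422). Mcl1 was also the most precisely measured member, with a smaller standard error in 6.33% of all genes tested.

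Bcl2, the founding pro-survival gene of the family, was at 63.3, 38.9 and 44.6 CPM in the isotype mice and at 36.6, 49.9 and 29 CPM in the CB mice. The highest value belonged to an isotype mouse and the lowest to a CB mouse, and the groups overlapped. Mean levels were 49 ± 12.8 CPM in isotype, 41.7 ± 9.4 in anti-PD-L1, 41.1 ± 8.7 in anti-Lag3 and 38.5 ± 10.6 in CB. The log2 fold change of CB against isotype was -0.35 (SE 0.23, interval -0.82 to 0.12, edgeR adjusted p = 0.488). This interval holds a level in CB between 0.566 and 1.09 times that in isotype.

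Bcl2l1, which encodes BCL-XL, was at 20.1, 11.7 and 24.4 CPM in isotype and at 27.2, 15.1 and 18.8 CPM in CB. The CB mice were spread over nearly the same range as the isotype mice. The log2 fold change was 0.12 (SE 0.31, interval -0.52 to 0.76, edgeR adjusted p = 0.953), and its sign turned to -0.13 without isotype mouse 2 and to -0.14 without CB mouse 1. Bcl2l1 is also strongly used by red cell precursors, and the erythroid marker sums given above were lower in every CB mouse than in every isotype mouse. Their part in the Bcl2l1 values was not tested.

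Bcl2a1b, a gene of the activation-induced A1 protein, was at 10, 12 and 15.9 CPM in isotype and at 13.1, 7.16 and 16.5 CPM in CB. The CB mice included both the lowest and the highest value of the pair of groups. The log2 fold change was -0.05 (SE 0.37, interval -0.81 to 0.71, edgeR adjusted p = 1), and it was 0.15 without isotype mouse 3 and 0.22 without CB mouse 2. The mouse genome holds several near-identical A1 genes, so reads assigned to Bcl2a1b are uncertain. Of the 50-base stretches in the last 500 bases of its transcript, 86.9% also occur in another gene, and 66.7% in genes that do not overlap Bcl2a1b. The coding sequence of 516 bases differs at 6 positions from Bcl2a1d (98.8% identity) and at 11 from Bcl2a1a (97.9%). The first 90 coding bases are shown because no other stretch of that length searched within 1 exon held more differences. Capitals mark the 6 positions at which the 3 genes differ (GENCODE M21, GRCm38).
Bcl2a1b, chr9:89199360-89199449, plus strand: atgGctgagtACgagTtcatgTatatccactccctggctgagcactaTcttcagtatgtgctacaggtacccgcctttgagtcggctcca
Bcl2a1d, chr9:88731630-88731719, minus strand: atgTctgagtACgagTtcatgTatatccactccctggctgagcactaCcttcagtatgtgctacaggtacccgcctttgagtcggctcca
Bcl2a1a, chr9:88957051-88957140, plus strand: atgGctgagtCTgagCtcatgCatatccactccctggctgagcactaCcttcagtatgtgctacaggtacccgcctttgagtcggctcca
With the reads of these 3 copies summed as 1 gene, an alternative chosen after seeing the data, the log2 fold change of CB against isotype was -0.13 with an edgeR adjusted p of 0.944.

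Among the BH3-only genes, Bid had the estimate furthest from 0 relative to its error. BID is cut by caspase-8 and carries the signal of death receptors to the mitochondria. Its level was 16, 16.3 and 12.2 CPM in the isotype mice, 14.6, 11.8 and 16.2 CPM in the anti-PD-L1 mice, 17.4, 13.5 and 21 CPM in the anti-Lag3 mice and 29.3, 18.1 and 24.3 CPM in the CB mice. Every CB mouse lay above every isotype and anti-PD-L1 mouse, while the lowest CB mouse lay below the highest anti-Lag3 mouse. Means were 14.8 ± 2.27 CPM in isotype, 14.2 ± 2.22 in anti-PD-L1, 17.3 ± 3.77 in anti-Lag3 and 23.9 ± 5.61 in CB. The log2 fold change of CB against isotype was 0.69 (SE 0.29, interval 0.10 to 1.27), with an edgeR p of 0.0238 before adjustment and an adjusted p of 0.227, which misses the threshold of 0.05. Over 23 alternative settings this value stayed between 0.51 and 0.85. CB against anti-PD-L1 gave 0.75 (SE 0.29, edgeR adjusted p = 0.377), and CB against anti-Lag3 gave 0.47 (SE 0.28, edgeR adjusted p = 0.588). On the log2 scale, CB differed from the sum of both single-antibody effects by 0.53 (interval -0.30 to 1.36). Effects that add on this scale are fold changes that multiply, and neither this nor a departure from it could be shown. Whether differences in CPM added up was not tested.

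Bid ends tail to tail with Bcl2l13, an atypical family gene on the opposite strand, and the transcripts overlap over 913 bases at chr6:120891930-120892842 (GRCm38), of which 628 are exonic in both. The strand setting used in counting is not given in the sources used here. Bcl2l13 had a log2 fold change of 0.02 in CB against isotype (SE 0.25, edgeR adjusted p = 1), with means of 30.1 ± 2.67 CPM in isotype and 30.5 ± 4.33 in CB. A difference like that of Bid was not seen in the Bcl2l13 total. Where reads of the shared bases were assigned was not tested.

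Bcl2l11, the gene of BIM, was at 49.8, 40.1 and 50.3 CPM in the isotype mice, 42, 71.2 and 60.2 CPM in the anti-PD-L1 mice, 45.2, 48.6 and 52.4 CPM in the anti-Lag3 mice and 53.8, 66.2 and 56.2 CPM in the CB mice. All CB mice lay above all isotype and anti-Lag3 mice, and the anti-PD-L1 mice spanned both. Means were 46.7 ± 5.76 CPM in isotype, 57.8 ± 14.7 in anti-PD-L1, 48.7 ± 3.56 in anti-Lag3 and 58.7 ± 6.58 in CB. The log2 fold change against isotype was 0.33 in CB (SE 0.18, interval -0.04 to 0.70, edgeR adjusted p = 0.396), 0.31 in anti-PD-L1 (interval -0.07 to 0.68) and 0.06 in anti-Lag3 (interval -0.31 to 0.43). These 3 comparisons share the isotype mice. A rise of more than 1.63 times in CB lies outside the interval.

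Pmaip1 and Bbc3, the genes of NOXA and PUMA and both known targets of p53, had few reads and the widest errors. Pmaip1 was at 3.52, 8.17 and 5.08 CPM in isotype and at 3.04, 0.865 and 4.7 CPM in CB, while the anti-Lag3 group alone ran from 0.945 to 10.4 CPM. Its log2 fold change in CB was -0.96 (SE 0.84, interval -2.69 to 0.77, edgeR adjusted p = 0.665), which allows anything from 0.155 to 1.7 times the isotype level. Only 18 reads stood behind the lowest CB value. Bbc3 was at 6.09, 3.23 and 4.18 CPM in isotype and at 2.04, 6.01 and 6.78 CPM in CB, with a log2 fold change of 0.14 (SE 0.62, interval -1.14 to 1.41, edgeR adjusted p = 0.987). Leaving out isotype mouse 2, CB mouse 2 or CB mouse 3 turned its sign, giving -0.05, -0.03 and -0.16. For Bbc3 the interval reaches beyond 2-fold in both directions, from 0.454 to 2.66 times the isotype level.

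Of the effectors, Bak1 stood at a steadier level than Bax. Bak1 was at 78.7, 74.5 and 75.6 CPM in isotype and at 80.9, 84.9 and 68.9 CPM in CB. Its means ran from 76.3 ± 2.16 CPM in isotype to 80.3 ± 6.34 in anti-Lag3, and the log2 fold change of CB against isotype was 0.04 (SE 0.14, interval -0.26 to 0.33, edgeR adjusted p = 0.983). Differences beyond 0.836 to 1.26 times the isotype level thus lie outside the interval for Bak1. Bax was at 24.5, 36.2 and 45.2 CPM in isotype and at 36.2, 36.4 and 49.9 CPM in CB. The isotype mice were the more scattered of the 2 groups for Bax, and its log2 fold change was 0.21 (SE 0.23, interval -0.26 to 0.68, edgeR adjusted p = 0.768). The 3' part of Bax shares 16.8% of its 50-base stretches with the overlapping gene Gm45808 and 0% with genes elsewhere.

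**Figure D1:**
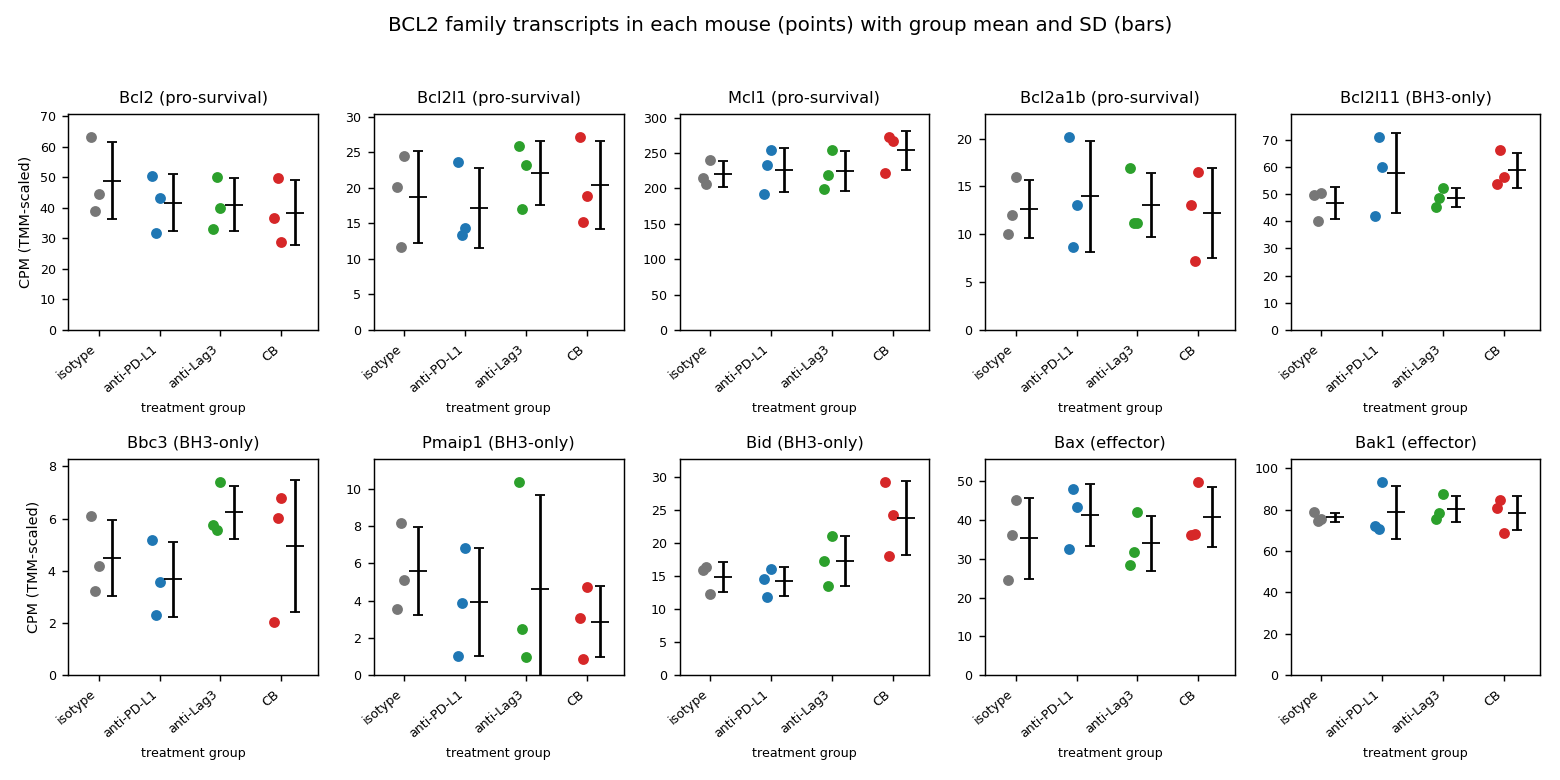
Level of each of the 10 BCL2 family genes (y axis, CPM after TMM scaling, from 0) in the 4 treatment groups (x axis). Points are single mice, the horizontal tick is the group mean and the bar is 1 SD (n = 3; the bar for Pmaip1 in anti-Lag3 is cut at 0). The 3 CB mice sit above the 3 isotype mice for Bid and Bcl2l11 and overlap them for the other 8 genes.

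The counts of members were read against those of all genes tested. With edgeR's quasi-likelihood test, 0 of 10 members were called in CB against isotype, where 4.29% of all genes tested were called. At an unadjusted p under 0.05 the count was 1 of 10, Bid, where 14.9% of all genes passed. DESeq2 also called 0, giving an adjusted p to 8 of the 10, with 1 of 10 at an unadjusted p under 0.05. The CB and isotype mice did not overlap for 2 of 10 members, Bid and Bcl2l11, where 20.0% of all genes did not overlap. The fitted log2 fold change was above 0 for 7 of 10 members, against 48.8% of all genes, and its median was 0.13, against 0.00 over all genes. For 7 of 10 members the interval excluded a 2-fold difference in either direction, the exceptions being Bbc3, Pmaip1 and Bid.

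Neither antibody alone gave a call in the family. In anti-PD-L1 against isotype, edgeR called 0 of 10 members (0.0330% of all genes), 0 of 10 had an unadjusted p under 0.05 (7.84% of all genes), and 0 of 10 did not overlap (11.8% of all genes). In anti-Lag3 against isotype it called 0 of 10 (0% of all genes), with 0 of 10 at an unadjusted p under 0.05 (5.21%) and 0 of 10 not overlapping (10.1%). DESeq2 called 0 of 10 in both, with 0 of 10 at an unadjusted p under 0.05. The interval excluded a 2-fold difference for 8 of 10 members in each of these comparisons. The estimates ran from -0.51 for Pmaip1 to 0.31 for Bcl2l11 under anti-PD-L1, and from -0.28 for Pmaip1 to 0.47 for Bbc3 under anti-Lag3.

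**Figure D2:**
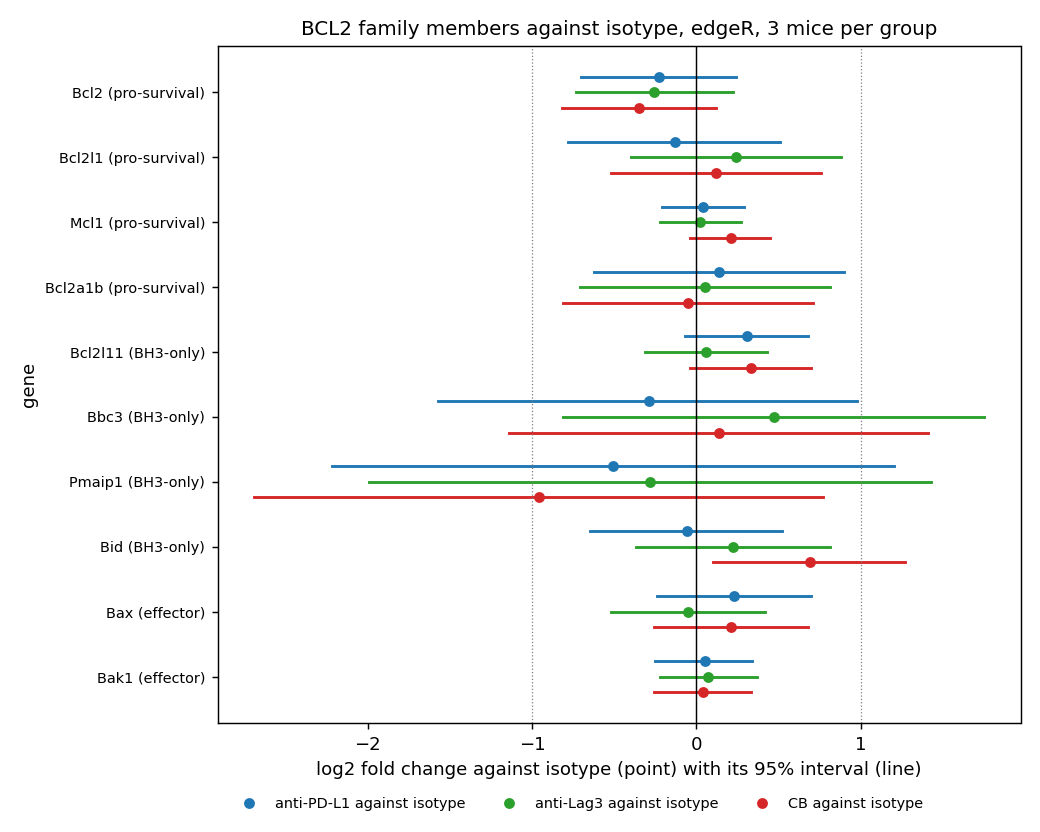
Log2 fold change against isotype (x axis, points) with its 95% interval (lines) for the 10 genes (y axis) under anti-PD-L1, anti-Lag3 and CB, from 1 edgeR fit with 3 mice per group; the 3 comparisons share the isotype mice, and dotted lines mark 2-fold. Of the 30 intervals, which are not adjusted for the number of genes, the one for Bid in CB, from 0.10 to 1.27, lies wholly above 0. Over all genes, the unadjusted edgeR p was under 0.05 for 14.9% in CB, 7.84% in anti-PD-L1 and 5.21% in anti-Lag3.

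The remaining comparisons asked whether CB differed from either antibody or, in the interaction, from the sum of their log2 effects. In CB against anti-PD-L1, edgeR called 0 of 10 members (0.370% of all genes), 1 of 10 had an unadjusted p under 0.05 (9.08%), and 1 of 10 did not overlap (12.7%), the gene being Bid in both. In CB against anti-Lag3 it called 0 of 10 (0.694%), with 0 of 10 at an unadjusted p under 0.05 (9.46%) and 1 of 10 not overlapping, Bcl2l11 (14.8%). In anti-PD-L1 against anti-Lag3 it called 0 of 10 (0%), with 0 of 10 at an unadjusted p under 0.05 (4.69%) and 1 of 10 not overlapping (8.70%). That gene was Bbc3, at 5.17, 2.3 and 3.55 CPM in anti-PD-L1 and at 5.77, 5.54 and 7.4 CPM in anti-Lag3 (log2 fold change -0.76, SE 0.62, edgeR adjusted p = 0.916). In the interaction it called 0 of 10 (0%), with 0 of 10 at an unadjusted p under 0.05 (5.93%). DESeq2 called 0 in each of these 4, giving 8 of the 10 an adjusted p in CB against anti-Lag3 and all 10 in the others, with 1 of 10 at an unadjusted p under 0.05 in CB against anti-PD-L1 and 0 of 10 in the others. Interaction estimates ran from -0.24 for Bcl2a1b to 0.53 for Bid.

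Since proteins of this family act on each other, the ratio of reads was formed for all 45 pairs of members within each mouse. In 5 pairs (11.1%) the CB and isotype mice did not overlap, where 23.8% of all pairs of well-measured genes did not. The 5 were Bcl2 over Mcl1 (0.185 to 0.296 in isotype, 0.108 to 0.183 in CB), Bcl2 over Bcl2l11, Bcl2a1b over Pmaip1, Pmaip1 over Bid and Pmaip1 over Bax. BIM against BCL2 is a pair often used to describe T cell survival. Bcl2l11 over Bcl2 was 0.786, 1.03 and 1.13 in the isotype mice, 0.834, 2.25 and 1.4 in the anti-PD-L1 mice, 1.37, 0.967 and 1.31 in the anti-Lag3 mice and 1.47, 1.33 and 1.94 in the CB mice. Every CB mouse lay above every isotype mouse, but the highest ratio was that of an anti-PD-L1 mouse, and CB overlapped both single antibodies. These pairs were picked from 45 after their values were seen and carry no test.

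**Figure D3:**
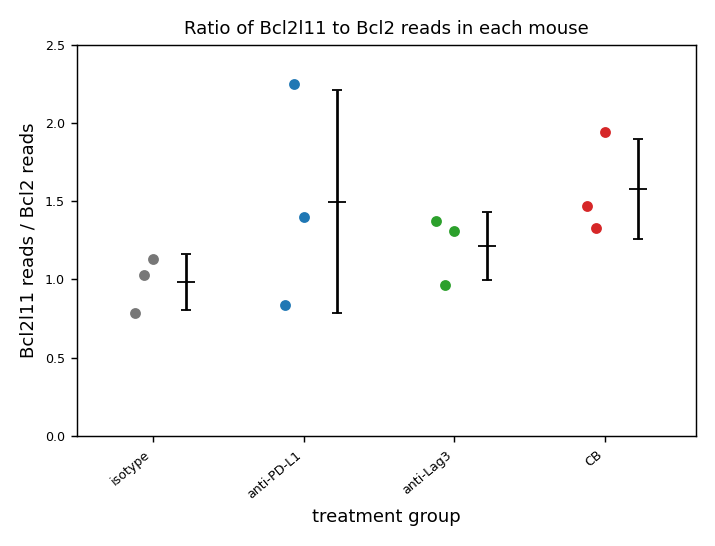
Reads of Bcl2l11 divided by reads of Bcl2 (y axis, from 0) in each mouse of the 4 groups (x axis), with the group mean and SD as ticks and bars (n = 3). CB mice lie between 1.33 and 1.94 and isotype mice between 0.786 and 1.13, while the anti-PD-L1 mice span 0.834 to 2.25.

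The wider family was sparse in these cells. Of 16 other BCL2 family genes, 12 passed the filter and 0 of 12 were called in CB against isotype with edgeR, with 1 at an unadjusted p under 0.05 (4.29% and 14.9% of all genes). That one was Bnip3, a gene known to respond to low oxygen and to act in removing mitochondria, at 2.67, 1.58 and 6.19 CPM in isotype and at 8.43, 11.1 and 13.7 CPM in CB. For Bnip3 the groups did not overlap, which held for 1 of the 12 and for 20.0% of all genes. Its log2 fold change was 1.66 (SE 0.53, interval 0.56 to 2.76, edgeR adjusted p = 0.0816). Its relative Bnip3l, which clears mitochondria from maturing red cells, had a log2 fold change of -0.21 (SE 0.21, edgeR adjusted p = 0.732), beside the lower erythroid marker sums whose part in it was not tested. Bcl2a1a, another A1 copy, had 2 reads over the isotype mice, 29 in CB mouse 2 and 0 in the other CB mice. Bcl2l15 likewise had 79 reads in CB mouse 2, 0 in the other CB mice and 7 in isotype mouse 2, so no fold is given for either gene. DESeq2 called 0 of the 3 genes of this list to which it gave an adjusted p, with 1 of 12 at an unadjusted p under 0.05.

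Downstream of the pores, 0 of 18 genes of the mitochondrial death pathway were called in CB against isotype, with 3 at an unadjusted p under 0.05 (4.29% and 14.9% of all genes). Endog, a mitochondrial nuclease, had means of 21 ± 7.25 CPM in isotype and 34.6 ± 3.8 in CB (log2 fold change 0.72, SE 0.26, edgeR adjusted p = 0.14). Birc3, an inhibitor of apoptosis that NF-κB induces, had means of 46.8 ± 5.27 and 29.6 ± 6.41 CPM (log2 fold change -0.66, SE 0.24, edgeR adjusted p = 0.128). The mice of both groups did not overlap for either gene. Of the 18 genes, 2 lay wholly higher and 1 wholly lower in CB, where 20.0% of all genes did not overlap. Cycs, which encodes cytochrome c, had a log2 fold change of 0.53 (SE 0.23, edgeR adjusted p = 0.24) and Diablo, whose protein leaves mitochondria with it, one of 0.46 (SE 0.24, edgeR adjusted p = 0.377).

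On the death receptor side, 0 of 11 genes were called and 0 of 11 had an unadjusted p under 0.05 in CB against isotype (4.29% and 14.9% of all genes). The estimates with the smallest adjusted p were those of the adaptor Tradd (-0.40, SE 0.21, edgeR adjusted p = 0.365) and the kinase Ripk1 (-0.35, SE 0.22, edgeR adjusted p = 0.444). Tnfrsf10b, a receptor for TRAIL, had -0.65 (SE 0.64) and Tnfrsf1b, a receptor for TNF, -0.20 (SE 0.22). Fas was at 11.5 ± 2.04 CPM in isotype and 10.9 ± 0.264 in CB, and Cflar, which restrains caspase-8, at 37.6 ± 6.8 and 35.2 ± 1.56. DESeq2 called 0 of 18 genes of the mitochondrial list, with 3 at an unadjusted p under 0.05, and 0 of the 8 death receptor genes to which it gave an adjusted p, with 0 of 11 at an unadjusted p under 0.05.

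Calls appeared in a list of regulators, which was chosen with earlier results of these data known, so its count is not an independent result. Whether these genes acted on any member was not tested. Among 21 genes known to regulate BCL2 family genes or proteins, edgeR called 3 higher and 2 lower in CB than in isotype, where 2.33% of all genes were called higher and 1.96% lower. DESeq2 called the same 5. Of the 21 genes, 3 lay wholly higher and 5 wholly lower in CB than in isotype, where 20.0% of all genes did not overlap. Pim2, a kinase that promotes survival in part by phosphorylating BAD, was at 50, 53.1 and 49.5 CPM in the isotype mice and at 124, 95.3 and 123 CPM in the CB mice. No CB mouse came near the isotype range, and the log2 fold change was 1.16 (SE 0.15, interval 0.86 to 1.47, edgeR adjusted p = 2.3e-05). Both single antibodies lay between, with means of 75.5 ± 11.9 CPM in anti-PD-L1 and 77.6 ± 6.8 in anti-Lag3, and neither was called against isotype (log2 fold change 0.57, edgeR adjusted p = 0.259, and 0.61, edgeR adjusted p = 0.554). On the log2 scale, where adding means that fold changes multiply, CB departed from the sum of the single effects on Pim2 by -0.02 (SE 0.21).

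Il2ra, the chain that gives the receptor high affinity for the survival cytokine interleukin-2, was at 14.1, 24.1 and 25.4 CPM in isotype and at 26.1, 41.8 and 58.6 CPM in CB. The lowest CB mouse stood just above the highest isotype mouse (log2 fold change 0.99, SE 0.27, edgeR adjusted p = 0.0288). The call rested on single mice, since the adjusted p was 0.18 without isotype mouse 1, 0.07 without CB mouse 2 and 0.294 without CB mouse 3. Atf4, a transcription factor of the integrated stress response, was at 161, 178 and 218 CPM in isotype and at 256, 254 and 308 CPM in CB. All CB mice lay above all isotype mice (log2 fold change 0.56, SE 0.12, edgeR adjusted p = 0.00569), and the adjusted p was 0.055 without isotype mouse 1 and 0.064 without CB mouse 3. Atf4 was also called in CB against anti-Lag3 (0.56, SE 0.12, edgeR adjusted p = 0.0221), a call that ended without anti-Lag3 mouse 1 (0.0749), anti-Lag3 mouse 2 (0.151) or CB mouse 3 (0.196).

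Foxo1, a factor that keeps resting T cells quiescent and is switched off by receptor signals, was at 257, 227 and 224 CPM in isotype and at 150, 166 and 163 CPM in CB. The CB mice were close together and all below the isotype mice (log2 fold change -0.56, SE 0.11, interval -0.78 to -0.34, edgeR adjusted p = 0.00203). Foxo1 was also called lower in CB than in anti-PD-L1 (-0.49, SE 0.11, edgeR adjusted p = 0.0443), but this call ended in 9 of the 12 fits that left out a mouse, with adjusted p up to 0.193. Foxo3 had -0.60 against isotype (SE 0.35, edgeR adjusted p = 0.422). Nfkb1, a subunit gene of NF-κB, was at 90.4, 97.4 and 107 CPM in isotype and at 48, 60.2 and 51.1 CPM in CB. All CB mice lay below all isotype mice (log2 fold change -0.89, SE 0.17, interval -1.24 to -0.54, edgeR adjusted p = 0.00203). The anti-PD-L1 mice, at 55.2, 50.5 and 81.1 CPM, also lay wholly below isotype (-0.66, SE 0.17, edgeR adjusted p = 0.258), and CB against anti-PD-L1 gave -0.23 (SE 0.17, edgeR adjusted p = 0.693). Its relative Rel had -0.60 (SE 0.24, edgeR adjusted p = 0.186) and Rela 0.29 (SE 0.17, edgeR adjusted p = 0.402). Foxo1, Nfkb1 and Pim2 kept their calls against isotype in each fit that left out a single mouse, whereas with only the samples numbered 2 and 3, chosen after seeing the data, Foxo1 had -0.45 with an edgeR adjusted p of 0.0594.

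**Figure D4:**
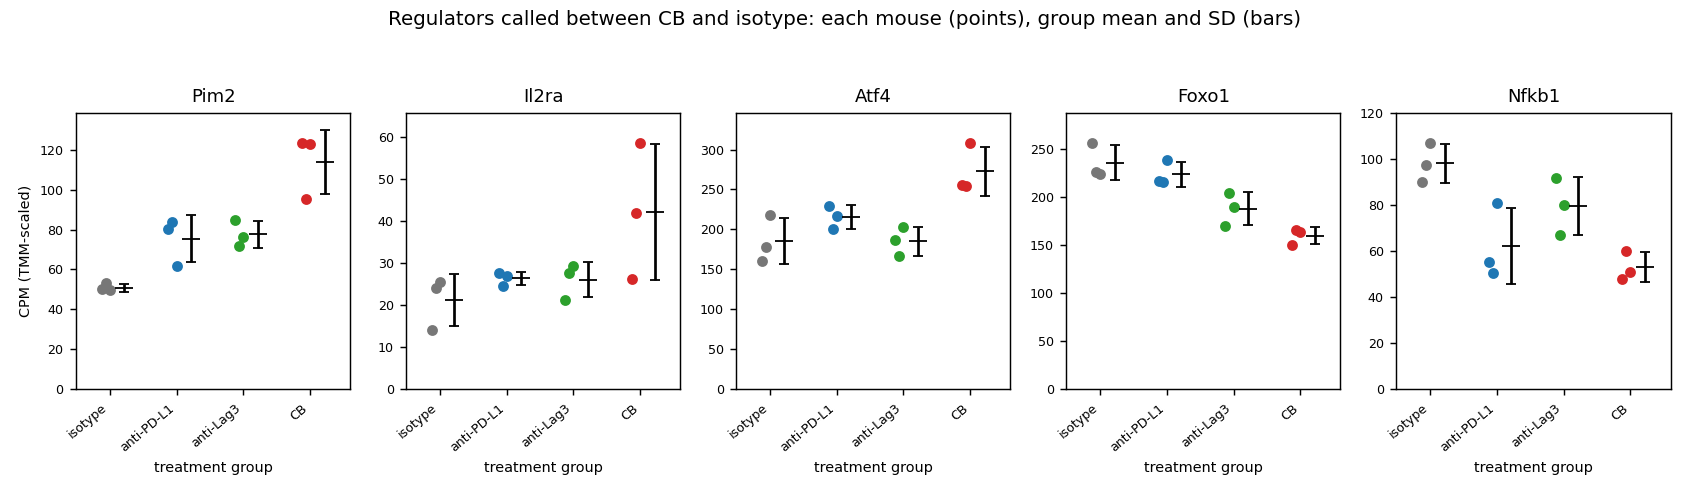
Levels (y axis, CPM after TMM scaling, from 0) of the 5 regulators called between CB and isotype in each mouse of the 4 groups (x axis), with group means and SD (n = 3). CB mice lie above isotype mice for Pim2, Il2ra and Atf4 and below them for Foxo1 and Nfkb1, without overlap in any of the 5.

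FOXO factors are known to drive Bcl2l11 and Bbc3 in cells deprived of growth signals, so the promoters of the members were read beside the Foxo1 values. RefSeq (GRCm38.p6) gives 14 start sites for 9 of the members (Pmaip1 was not analysed here), with 250 bases before and 50 after each. The FOXO letters GTAAACA, read on both strands, occur in 1 start site of Bcl2l11 and in 1 of Bbc3, against 3.65% of all 32851 promoters, and in none of the others. Capitals mark the match.
Bcl2l11, chr2:128125793-128125835, plus strand: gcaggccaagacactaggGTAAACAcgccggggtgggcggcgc
Bbc3, chr7:16310076-16310118, plus strand: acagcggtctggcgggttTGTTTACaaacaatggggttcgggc
The match lies 227 bases before the start of Bcl2l11 and 167 before that of Bbc3, the latter inside the gene because an earlier start exists. Beside a Foxo1 log2 fold change of -0.56, those of Bcl2l11 and Bbc3 were 0.33 (interval -0.04 to 0.70) and 0.14 (interval -1.14 to 1.41), and neither passed the test. FOXO activity was not measured, and a link between these values was not tested. Of other letters searched on both strands, CACGTG (E-box) had 2 matches in Bax and 1 in Bbc3 (7.15% of all promoters hold it), TGANTCA (AP-1) had 1 in Bcl2a1b (7.81%), TGATGNAA (ATF4) had 1 in Bcl2a1b (3.97%), and TGGAAA (NFAT) had 0 in any of the 14 start sites (21.4%). A match is a description of these letters and no evidence of binding.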

How the data were processed

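RNA of CD4+ Timer Blue+ Red+ T cells from 12 mice (4 groups of 3) was made into 3' mRNA libraries. The methods name no molecular identifiers, so PCR copies may have been counted as reads. Per the labels and methods, reads were processed for the authors by Lexogen, with trimming in Cutadapt 1.18, mapping in STAR 2.6.1a to GRCm38 and counting on genes in featureCounts 1.6.4, and the deposited values are raw counts. The annotation release and strand setting are not given in the sources used here. A second deposited table of 12 rlog columns was not used, and 0 columns of other samples were present. Symbols for 52073 of 56691 genes came from GENCODE M21. The 114 spike-in rows were left out of library sizes.

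Counts were tested with edgeR 4.0.16 in R 4.3.3 (TMM, 4 group means, no covariates, at least 30 reads in sum, Benjamini-Hochberg over 15138 genes, threshold 0.05, prior count 0.125), with standard errors taken from the quasi-likelihood F. DESeq2 1.42.0, other scalings and filters, tests against a log2 fold change of 0.2, the replicate number as a block, and leaving out each mouse served as alternatives. The edgeR fit was also run on simulated counts in which known genes were changed in CB. Against isotype it called 19.4% of genes changed 1.5-fold, 50.7% of those changed 2-fold and 77.3% of those changed 4-fold. It also called 10 unchanged genes. The absence of calls thus does not show that the members were unchanged. No pair of libraries of a group agreed within sampling noise. The members and lists were chosen with earlier results of these data known. All members were named, and of each other list the called genes, or the 4 with the smallest adjusted p in CB against isotype; Fas, Cflar, Foxo3, Rel, Rela and Bcl2l13 were added after their values were seen. Cells of the 4 conditions were multiplexed and sorted in batches of 4, but the labels do not tie a sample to a sort batch. The paper describes PC2 of its principal component analysis as mostly a matter of sort batches.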

Additional observations from a re-analysis of the deposited data

How the results depend on the processing

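The count of members called was 0 in all 7 comparisons under each alternative run (DESeq2 gave no adjusted p to 2 members in CB against isotype and in CB against anti-Lag3), and the smallest adjusted p of any member was 0.151. Of the 70 estimates, 28 kept their sign throughout. Leaving out single mice moved Bcl2l1 over -0.14 to 0.36, Bcl2a1b over -0.32 to 0.22, Bbc3 over -0.16 to 0.51 and Bak1 over -0.03 to 0.12 in CB against isotype, so that each changed sign. Bcl2 ran from -0.58 to -0.12, Bax from 0.00 to 0.43 and Pmaip1 from -1.52 to -0.53, and using only the samples numbered 2 and 3, chosen after seeing the data, gave -0.09 for Bcl2l1. Regulators called numbered 5, and 3 with DESeq2 against 0.2, 3 with the samples numbered 2 and 3, and 3 to 5 when single mice were left out. The cause was not tested. Foxo1 (0.0594) and Atf4 (0.0528) lost their calls with the samples numbered 2 and 3, as did Atf4 with DESeq2 against 0.2 (0.172). Il2ra also lost its call against a log2 fold change of 0.2 (0.064) and with only the groups compared (0.0543).

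Whether the replicate numbers mark sort batches is not stated, and they were not taken to pair the mice, since deviations of same-numbered samples correlated at -0.06 to 0.12 (18 pairs, 10448 genes) and others at -0.13 to 0.07. The 6 pairs numbered 1 (0.01 to 0.12) and the 6 numbered 3 (0.04 to 0.09) were all positive, the 12 pairs of a 1 with a 3 all negative (-0.13 to -0.04), and 5 of the 6 pairs numbered 2 negative. Deviations were taken from the mean of the 3 mice of a group, so positive pairs push other pairs to negative values. The negative pairs are therefore no separate evidence. The positive pairs are a hint of shared variation and do not tell which samples shared a sort batch. With the replicate block, members called stayed at 0 (Bid 0.65, adjusted p = 0.263), and genes called were 843 in CB against isotype, 23 in anti-PD-L1, 9 in anti-Lag3, 137 and 208 in CB against each antibody, and 4 in the interaction. The counts without it were 649, 5, 0, 56, 105 and 0. DESeq2 called 918, 56, 9, 178, 280 and 5, and against a log2 fold change of 0.2 called 233, 11, 2, 18, 41 and 2. edgeR against 0.2 called 364 in CB against isotype, 2 in anti-PD-L1, 3 in CB against anti-PD-L1 and 39 in CB against anti-Lag3. Without a filter on low counts edgeR called 40 in anti-PD-L1 against isotype, 14 in anti-Lag3 against isotype, 150 and 252 in CB against each antibody and 10 in the interaction. CB against anti-PD-L1 gave 37 without TMM and 4 with only those groups. Leaving out single mice gave 394 to 705 in CB against isotype, 0 to 10 in anti-PD-L1 against isotype, 4 to 57 in CB against anti-PD-L1 and 42 to 125 in CB against anti-Lag3, and the samples numbered 2 and 3 alone gave 330, 1, 25 and 47. Each group held 3 mice, and PCR copies may be among the reads. In CB against isotype, the intervals of Bbc3, Pmaip1 and Bid reached beyond 2-fold.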
